A study of Sus scrofa with 21 samples.

Results

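The parvin, integrin-linked kinase (ILK) and PINCH adhesion genes were followed in pig (Sus scrofa) bulk RNA sequencing libraries. The 10 genes, PARVB, PARVA, PARVG, ILK, LIMS1, LIMS2, FERMT2, FERMT3, TLN1 and VCL, were chosen by symbol, and all 10 were found among the 24358 genes of the table. The choice rested on an earlier result, the difference in PARVB between microbrush and aorta, so that contrast is described here without a test. PARVB is tested only in wire against blood and in kidney against liver microbrush libraries, since every other comparison sets microbrush or aorta against another group.

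The study tried an endovascular device meant to collect endothelial cells from arteries. The 10 microbrush libraries came from a 3D-printed brush, 5 from peripheral kidney arteries and 5 from peripheral liver arteries, in pigs 243K and 248K with 5 libraries each. The 4 wire libraries, the negative control, came from a bare Nitinol wire without the brush, 1 from each artery of each of these pigs. The 4 aorta libraries, the positive control, were cut out surgically and all came from pig 237053, which gave no other library. Of the 3 whole blood libraries, blood 1 and blood 2 came from pig 243K and blood 3 from pig 248K. The labels used here give no strain, age, sex or treatment for the pigs. Libraries of a pig are not separate animals, so p-values measure the spread between libraries. For aorta, pig and tissue cannot be told apart.

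Integrins are receptors that tie the cytoskeleton to the matrix outside the cell. As known mainly from human and mouse, talin (TLN1) and a kindlin (FERMT genes) bind the integrin tail and switch the receptor on. ILK, a pseudokinase, holds a parvin (PARV genes) on one side and a PINCH protein (LIMS genes) on the other, and parvin binds actin; vinculin (VCL) strengthens the link of talin to actin. PARVA, FERMT2 and LIMS2 are known for muscle and connective tissue, whereas PARVG and FERMT3 are the family members of blood cells, and FERMT3 is required for platelet integrin activation.

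Total counts ranged from 1144932 to 10188552 per library on the microbrush, from 1946286 to 11128400 on the wire and from 1603229 to 3033008 in aorta, and were 5301288 and 3224540 in blood 1 and blood 3. Several libraries stood apart. Blood 2 held 5634 counts with all 10 genes at 0, which allows up to 532 CPM (counts scaled to a library total of 1000000) for each, and was left out of blood values unless stated. Microbrush 4 detected 3831 genes, wire 2 detected 9715 and wire 3 detected 10169, against 12653 to 20032 in the other 17 libraries. Wires 2 and 3 are the wires of pig 248K, so pig and low detection cannot be told apart on the wire. Comparisons without wires 2 and 3 keep only the wires of pig 243K. PARVA, PARVG, LIMS2 and FERMT2 were at 0 in microbrush 4, LIMS2 and FERMT2 in wire 2, and PARVA, LIMS2 and FERMT2 in wire 3. These zeros allow up to 1.24, 1.16 and 0.270 CPM per gene in microbrush 4, wire 2 and wire 3, for counting error only. No 2 of the other 20 libraries were copies of each other. As a check of the vessel label, the 11 smooth muscle markers summed to 31114 to 50355 CPM in aorta against 274 and 414 CPM in blood 1 and blood 3. The 9 endothelial markers summed to 216 to 1001 CPM on the microbrush, 247 to 793 CPM on the wire and 136 to 274 CPM in aorta. Blood 1 and blood 3 had 128 and 263 CPM of them, so this sum did not separate aorta from blood. The endothelial markers were split between the devices and aorta. ERG, ROBO4 and EMCN had lower medians on the wire (25.6, 5.20 and 0.334 CPM) than in aorta (43.3, 30.2 and 14.6 CPM). ROBO4 and EMCN also had lower medians on the microbrush (23.8 and 9.30 CPM) than in aorta. On each device every other endothelial marker had a higher median than in aorta. PECAM1 and KDR had the highest medians on the wire. Among these markers CDH5 and EMCN were at 0 in microbrush 4 and EMCN in microbrush 5. TEK, ERG and EMCN were at 0 in wire 2, and ERG, ROBO4 and EMCN in wire 3.

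The 3 parvin genes lie at 2 places in the genome (Sscrofa11.1, RefSeq gene spans). PARVG (ENSSSCG00000000025, chr5:4874343-4899508) and PARVB (ENSSSCG00000000024, chr5:4906667-5015494) are neighbours, 7158 bases apart with 1 other gene between them, and PARVA (ENSSSCG00000028827) is at chr2:46839081-47028102. ILK (ENSSSCG00000023272) spans chr9:3145647-3152097. The PINCH genes are LIMS1 (ENSSSCG00000008137, chr3:47607737-47704921) and LIMS2 (ENSSSCG00000015862, chr15:59672508-59709380). The kindlin genes are FERMT2 (ENSSSCG00000005041, chr1:182519681-182606890) and FERMT3 (ENSSSCG00000013041, chr2:7886781-7909892). TLN1 (ENSSSCG00000005317) is at chr1:236416041-236450978 and VCL (ENSSSCG00000010313) at chr14:76700143-76811875. All 10 are annotated as protein coding.

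Levels below are CPM of the total deposited counts of a library, with no correction for gene length, so they compare libraries for a gene and not genes with each other. PARVB, the parvin of the neighbouring pair that encodes beta-parvin, was on both devices and nearly absent from aorta. Its level was 161, 133, 234 and 97.6 CPM in wires 1 to 4, and on the microbrush the lowest, median and highest libraries had 3.32, 40.6 and 265 CPM. Aorta libraries 1 to 4 had 1.28, 0.330, 0 and 0.403 CPM, in all 5 counts of 9464821, and blood 1 and blood 3 had 21.3 and 8.68 CPM. The high microbrush libraries were 4, 6 and 8, all from liver arteries, with 265, 250 and 164 CPM, but the lowest, microbrush 9, was also from a liver artery. In the order of medians the wire stood first, then microbrush, blood and aorta, and only blood and aorta did not overlap between neighbours.

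PARVA, which encodes alpha-parvin and is the widely expressed family member, ran the other way. Aorta libraries 1 to 4 had 149, 159, 168 and 221 CPM, the wires 15.8, 27.0, 0 and 29.3 CPM, and blood 1 and blood 3 had 3.21 and 11.5 CPM. The microbrush libraries reached from 0 through a median of 54.7 to 241 CPM. All wire libraries lay below all aorta libraries, while the microbrush covered the range of both. PARVG, the gamma-parvin of blood cells, was highest in blood 3 and blood 1 at 106.4 and 90.9 CPM. Wires 1 to 4 had 37.2, 88.6, 29.0 and 67.3 CPM, aorta libraries 40.0, 41.9, 24.3 and 20.6 CPM, and the microbrush 0, 43.8 and 91.2 CPM as lowest, median and highest. Blood did not overlap the wire, but the wire, microbrush and aorta overlapped each other.

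**Figure D1:**
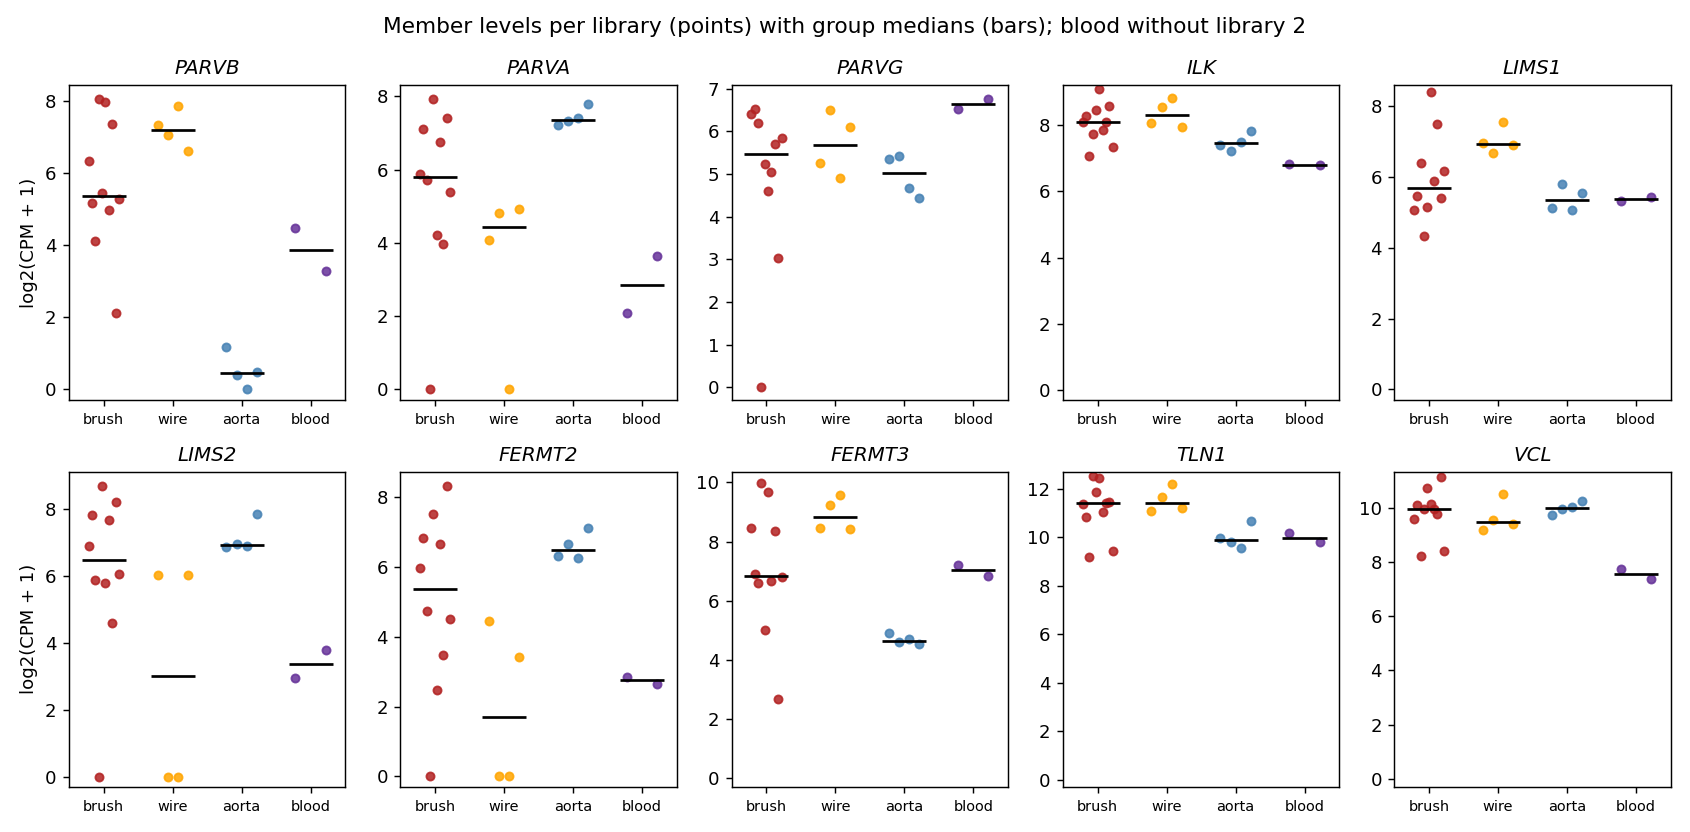
Level of each of the 10 genes as log2(CPM + 1) per library (points) with the group median (bars) for microbrush (10 libraries), wire (4), aorta (4) and blood (2, without blood 2). PARVB, FERMT3, LIMS1 and TLN1 have their highest medians on the wire and their lowest in aorta, while PARVA, LIMS2, FERMT2 and VCL have their highest medians in aorta.

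The PINCH adaptors divided in a like manner. LIMS1 (PINCH-1) was at 123, 100.9, 187 and 118.2 CPM in wires 1 to 4 and at 34.1, 55.1, 32.4 and 46.4 CPM in aorta libraries 1 to 4. Blood 1 and blood 3 had 39.2 and 42.2 CPM, and the microbrush had a lowest level of 19.4, a median of 50.9 and a highest of 337 CPM. Every wire library lay above every aorta and blood library, and aorta and blood overlapped. LIMS2 (PINCH-2) was at 116.2, 123, 117.2 and 229 CPM in aorta, at 63.9, 0, 0 and 64.7 CPM in wires 1 to 4, and at 6.79 and 12.7 CPM in blood. Microbrush LIMS2 spanned 0 to 407 CPM with a median of 92.1 CPM, so it overlapped every other group.

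The kindlins also differed in level between the groups. FERMT3 (kindlin-3) was at 348, 605, 755 and 343 CPM in wires 1 to 4, at 28.9, 23.02, 24.9 and 22.4 CPM in aorta and at 148 and 112.8 CPM in blood. The microbrush ranged from 5.31 through a median of 114.3 to 1020 CPM. The wire lay above blood and blood above aorta without overlap, and the microbrush covered all 3. FERMT2 (kindlin-2) was at 78.4, 99.2, 76.1 and 138 CPM in aorta, at 20.9, 0, 0 and 9.76 CPM in wires 1 to 4 and at 6.22 and 5.27 CPM in blood. Microbrush libraries had 0, 44.0 and 317 CPM as lowest, median and highest, and aorta lay above all wire and blood libraries.

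ILK, the common partner of parvin and PINCH, was detected in every library but blood 2 and varied least over the microbrush libraries. Wires 1 to 4 had 265, 369, 447 and 244 CPM, aorta 169, 147, 180 and 224 CPM, and blood 112.5 and 109.2 CPM, while the microbrush had 134, 272 and 545 CPM as lowest, median and highest. On the log2(CPM + 1) scale the SD of ILK over the 10 microbrush libraries was 0.59, the smallest among the 10 genes, and that of FERMT2 was 2.55, the largest. Without microbrush 4, where FERMT2 was at 0, ILK was still smallest (0.61), but FERMT3 (2.06) was largest, above FERMT2 (1.94). TLN1 had 2189, 3193, 4646 and 2363 CPM in wires 1 to 4, 998, 904, 757 and 1637 CPM in aorta, 1160 and 884 CPM in blood, and 579, 2713 and 5947 CPM on the microbrush. VCL was the member with least contrast between wire and aorta, at 583, 744, 1475 and 676 CPM in wires 1 to 4 and 845, 986, 1058 and 1230 CPM in aorta. Its levels in blood were 213 and 165 CPM, below all libraries of the other groups, and on the microbrush it had 295, 1000.3 and 2277 CPM. Salmon shares reads between similar transcripts, so the split between near-identical copies is less certain than their sum.

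Within a library the balance of paralogues needs no scaling between libraries. Of the counts of the 3 parvins, PARVB held a median of 64.4% on the wire, 23.2% on the microbrush, 12.7% in blood and 0.165% in aorta. PARVA held a median of 83.2% in aorta and PARVG 81.4% in blood, so each group but the microbrush had 1 leading parvin. The microbrush libraries went from PARVB at 100% (microbrush 4, 644 of 644 counts) and 85.9% (microbrush 6, Wilson 95% interval 84.6% to 87.1%) to PARVB at 1.85% and PARVA at 94.1% (microbrush 9, 1350 counts). FERMT3 held a median of 98.6% of the counts of FERMT2 and FERMT3 on the wire, 95.7% in blood, 81.1% on the microbrush and 21.8% in aorta. LIMS2 held 77.8% of the PINCH counts in aorta, 62.5% on the microbrush, 19.0% in blood and 17.1% on the wire, again as medians.

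**Figure D2:**
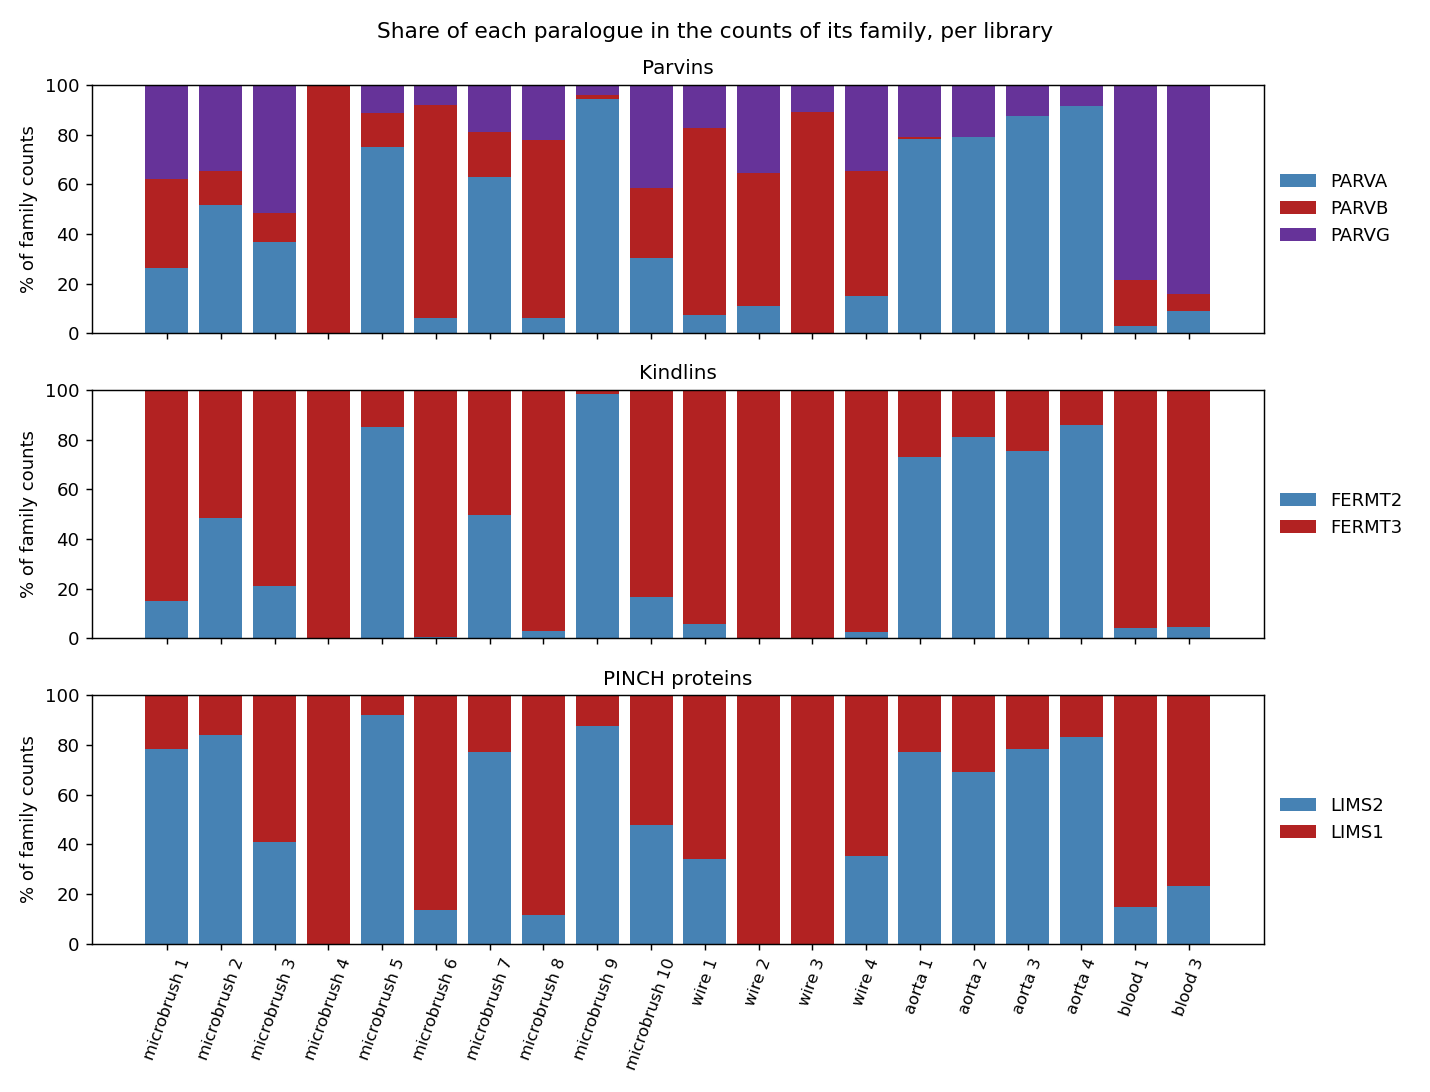
Share of each paralogue, in percent of the counts of its family, for each of 20 libraries; the panels show the parvins, the kindlins and the PINCH genes. The wires are led by PARVB and FERMT3 and the aorta libraries by PARVA, FERMT2 and LIMS2, while the microbrush libraries range from 1 pattern to the other.

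The ratios of PARVA to PARVG, FERMT2 to FERMT3 and LIMS2 to LIMS1 were compared over libraries with exact two-sided permutation tests, adjusted over 9 tests. The mean log2 ratio of PARVA to PARVG was 0.59 ± 1.89 (SD, n = 10) on the microbrush and -3.37 ± 3.99 (SD, n = 4) on the wire, a difference of 3.95 (exact p = 0.0050, adjusted p = 0.0450). That call ended when any 1 wire or microbrush 4, which had no count of either gene, was left out; without wire 3, where PARVA was at 0, the difference was 1.96 (adjusted p = 0.131, within a range of 0.0360 to 0.257 over alternatives). Without wires 2 and 3 and microbrush 4 it was 1.86. The ratio of FERMT2 to FERMT3 was higher on the microbrush than on the wire by 6.39 (exact p = 0.0529, adjusted p = 0.0794), and by 7.50 without microbrush 4 (adjusted p = 0.0429, range 0.0429 to 0.374), but by 3.37 without wires 2 and 3 and microbrush 4. For LIMS2 to LIMS1 the difference was 5.67 (exact p = 0.0250, adjusted p = 0.0514), and 1.59 without these 3 libraries. The 3 ratios were lower on the wire than in aorta, with differences of -5.86, -10.64 and -7.48 (-3.71, -6.51 and -2.67 without wires 2 and 3) and no overlap, each at the smallest exact p that 4 against 4 libraries allows, 0.0286 (adjusted p = 0.0514). Kidney and liver microbrush libraries did not differ beyond their spread in any of the 3 ratios (exact p from 0.159 to 0.754).

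PARVB was high in the device libraries in which platelet markers were high. The 7 platelet markers in the table summed to 12.7 to 4309 CPM on the microbrush, 1667 to 4007 CPM on the wire, 41.0 to 86.9 CPM in aorta, and 286 and 190 CPM in blood 1 and blood 3. Microbrush 4, 6 and 8, the libraries with most PARVB, had the highest sums on the microbrush (4251, 4309 and 2627 CPM), and microbrush 9, with least PARVB, had the lowest, with GP6 and TREML1 at 0. Microbrush 4 lacked only GP6. Microbrush 5 did not follow this order, with 42.8 CPM of PARVB at 173 CPM of platelet markers. Microbrush 2, 3, 7 and 10 had more of the platelet markers (438 to 580 CPM) and less PARVB (16.4 to 38.4 CPM). Per 1000 CPM of platelet markers, PARVB was at 58.2 to 96.7 CPM on the wire, 45.6 and 74.5 CPM in blood, 34.9 to 260 CPM on the microbrush and 0 to 14.7 CPM in aorta. The 12 leukocyte markers summed to 948 to 1743 CPM on the wire, 140 to 2024 CPM on the microbrush, 187 to 383 CPM in aorta, and 6645 and 5095 CPM in blood, where PARVG was highest. The part of platelets and leukocytes in these levels was not tested. In bulk libraries, fewer cells of a type and less RNA per cell cannot be told apart.

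PARVA, FERMT2 and LIMS2 were high where smooth muscle markers were high. The 11 smooth muscle markers summed to 3283 to 103049 CPM on the microbrush, 1897 to 3559 CPM on the wire, 31114 to 50355 CPM in aorta, and 274 and 414 CPM in blood. MYL9 went the other way between wire and aorta, with 1419 to 2997 CPM on the wire and 575 to 1103 CPM in aorta. Its wire median of 1746 CPM compares with 2879 CPM for the sum. Every other smooth muscle marker had a higher median in aorta than on the wire. Microbrush 5, 9 and 7 had the highest sums (103049, 82160 and 49048 CPM). ACTA2, CNN1, ACTG2 and SYNPO2 were at 0 in microbrush 4 and CNN1 in wire 2. The 7 fibroblast markers summed to 81.5 to 52475 CPM on the microbrush, 12.04 to 407 CPM on the wire and 3768 to 6615 CPM in aorta. They were split between microbrush and aorta. COL1A1, COL1A2 and COL3A1 had higher medians on the microbrush (2192, 1008 and 3073 CPM) than in aorta (1730, 437 and 1816 CPM). DCN, LUM, PDGFRA and DPT had lower medians on the microbrush (5.50, 40.2, 5.86 and 11.9 CPM) than in aorta (44.3, 98.2, 18.8 and 57.3 CPM). The part of smooth muscle cells and fibroblasts in the levels of PARVA, FERMT2 and LIMS2 was not tested.

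**Figure D3:**
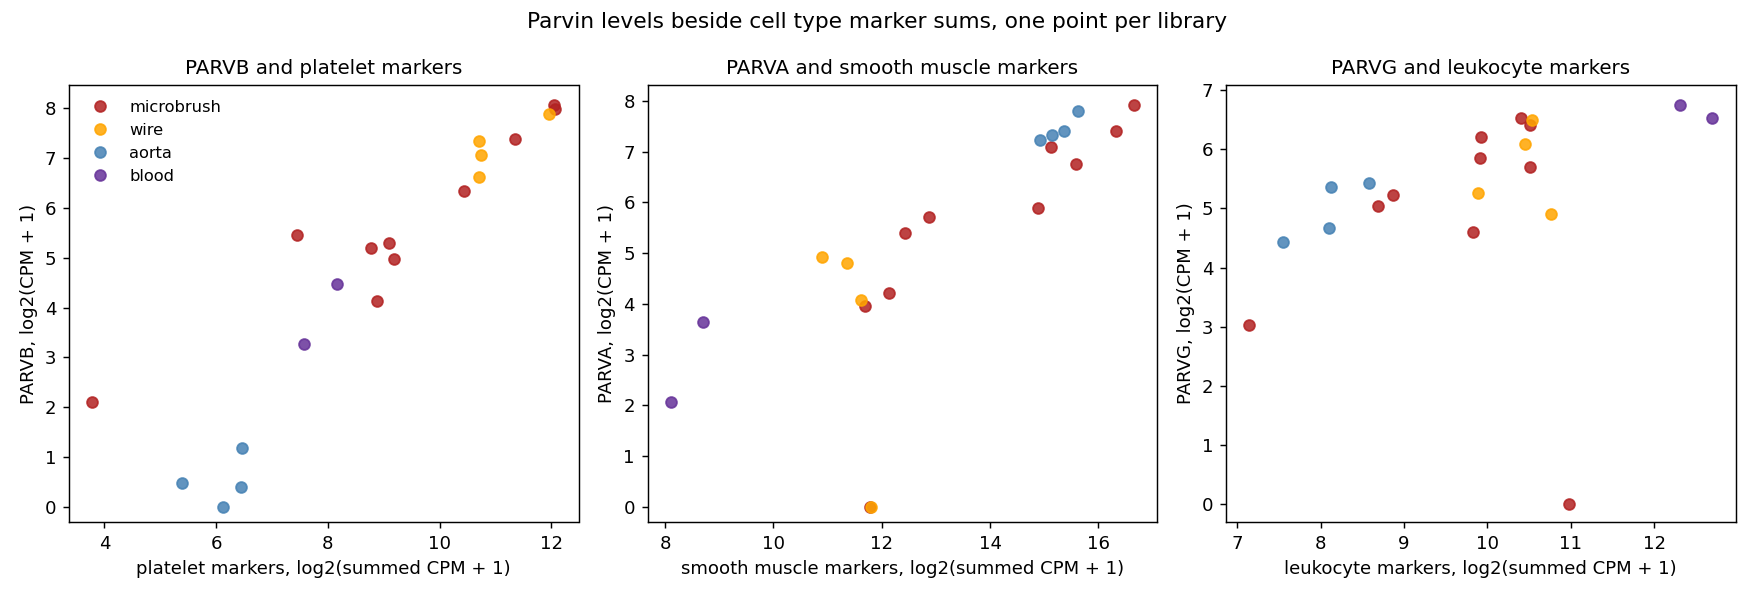
Level of PARVB, PARVA and PARVG, log2(CPM + 1), against the summed level of cell type markers, log2(summed CPM + 1), with 1 point per library coloured by group. PARVB is lowest in the aorta libraries, which have 41.0 to 86.9 CPM of platelet markers, and highest in the wires and microbrush 4, 6 and 8, which have 1667 to 4309 CPM of them.

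The contrast that chose PARVB, microbrush against aorta, is given as fitted log2 fold changes without a test. PARVB was 8.21 higher on the microbrush, followed by FERMT3 at 4.47, TLN1 at 2.09, LIMS1 at 2.05 and ILK at 1.30. The ILK value depended on scaling, with 0.61 under another scaling (RLE) and 0.67 on total counts. PARVG (0.74), VCL (0.53), LIMS2 (0.22) and FERMT2 (0.03) lay near 0 and PARVA at -0.87. PARVB was also the 1 gene of the 10 whose libraries did not overlap between these groups; of the 16776 genes tested 0.686% lay above aorta in this way, and nothing is read from this share because PARVB was chosen on this contrast.

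All further fold changes are log2, from edgeR's quasi-likelihood test on each comparison's own libraries, scaled by trimmed means (TMM), with p-values adjusted by Benjamini-Hochberg over all genes tested. The wire, as negative control, asks what the brush itself brings. None of the 9 genes tested differed between microbrush and wire, where 0% of 16439 genes were called. At an unadjusted p under 0.05, edgeR found 1 of the 9 and 518 of all genes; DESeq2 and limma voom called 0 of the 9, and DESeq2 called 96 of all genes higher and 5 lower. Fold changes were 3.36 (SE 1.37) for FERMT2, 2.10 (SE 1.24) for LIMS2 and 2.06 (SE 1.11) for PARVA, and from -1.04 (SE 0.97) for FERMT3 to -0.33 (SE 0.89) for VCL among the other 6. The median over all genes was 0.17. PARVB, without a test, was 1.05 lower on the microbrush. Within pig 248K, whose wires held no LIMS2 or FERMT2, LIMS2 was higher on the microbrush by 10.89 (adjusted p = 0.0289, the lowest of its alternatives, the highest being 0.999998), and within pig 243K by 1.69 (SE 1.08). The difference between the pigs in this device effect was 9.26 (adjusted p = 0.176). The wires of pig 248K are wires 2 and 3, which detected few genes, so pig and low detection cannot be told apart here.

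Against aorta, the wire libraries carried more of the blood cell kindlin and PINCH-1. FERMT3 rose by 5.45 (SE 0.74, adjusted p = 0.0052), with 513 ± 203 CPM on the wire and 24.8 ± 2.95 CPM in aorta (SD, n = 4 each; edgeR), and was higher in 4 of 4 wires. LIMS1 rose by 2.70 (SE 0.60, edgeR adjusted p = 0.0321), from 42.0 ± 10.7 to 132 ± 37.5 CPM (SD, n = 4 each). These were 2 of the 9 genes tested, where 2.80% of 15313 genes were called higher and 0.764% lower. That balance over all genes turned to 496 higher and 1019 lower without wire 4, and to 287 higher and 508 lower in limma voom. The LIMS1 call was lost without any 1 aorta library (adjusted p from 0.0783 to 0.163) and on total counts (0.0552), within a range of 0.00211 to 0.163 over alternatives. TLN1 (2.54, SE 0.74, adjusted p = 0.0988), ILK (1.87, SE 0.61), PARVG (1.57, SE 0.48), PARVA (-2.87, SE 1.02), FERMT2 (-3.25, SE 1.30), LIMS2 (-1.84, SE 1.38) and VCL (0.87, SE 0.68, but -0.25 on total counts) did not pass. DESeq2 also called PARVA and TLN1, and limma voom FERMT2 and TLN1.

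Of the 9 genes other than PARVB, 4 lay above aorta without overlap on the wire (ILK, LIMS1, FERMT3 and TLN1) and 3 below (PARVA, LIMS2 and FERMT2); over all genes 3.89% lay above and 20.6% below. The fitted PARVB difference, without a test because the aorta libraries chose it, was 9.21, and 8.32 without wire 3, 9.99 without aorta 1, 8.24 without wires 2 and 3 and 8.13 on total counts. Without wires 2 and 3 the fit called FERMT3 (4.20) and LIMS1 (1.91), and PARVA (-2.62, adjusted p = 0.00424, range 0.00424 to 0.447) and FERMT2 (-2.27, adjusted p = 0.0166, range 0.0166 to 0.680) as well. That fit holds only wires of pig 243K. Platelet marker sums stood at 1667 to 4007 CPM on the wire against 41.0 to 86.9 CPM in aorta, and their part in the FERMT3 and LIMS1 differences was not tested.

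The wire against blood shares no library with the contrast that chose PARVB. None of the 10 genes passed there in edgeR, where 0.0486% of 16461 genes were called, although 6 of the 10 and 724 of all genes had an unadjusted p under 0.05. PARVB was nearest, higher on the wire by 4.00 (SE 0.93, adjusted p = 0.0934), with 157 ± 58.1 CPM (SD, n = 4) against 15.0 ± 8.93 CPM (SD, n = 2) and no overlap. It passed in DESeq2, on total counts, without wire 1 and without wires 2 and 3 (3.19, adjusted p = 0.000273), and its adjusted p ranged from 7.71e-05 to 0.999986 over the alternatives. VCL (2.95, SE 0.97), FERMT3 (2.67, SE 0.90), LIMS1 (2.43, SE 0.81), TLN1 (2.30, SE 1.02) and ILK (2.28, SE 0.83) were higher in all 4 wires than in both blood libraries. DESeq2 called these 5 and PARVB, limma voom VCL alone, and the fit on total counts PARVB, FERMT3 and VCL. PARVG was lower in all 4 wires in CPM, but its fitted difference was -0.35 (SE 0.73) and turned to 0.14 under another scaling. In all, 6 of the 10 lay above blood and 1 below without overlap; over all genes 1.94% lay above and 27.0% below.

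Microbrush and blood differed in none of the 9 genes tested by edgeR, where 0.0168% of 17832 genes were called. An unadjusted p under 0.05 was reached by 3 of the 9, LIMS2 (4.27, SE 1.64), FERMT2 (4.10, SE 1.70) and PARVA (3.91, SE 1.58), and by 670 of all genes. DESeq2 called these 3 and VCL, which was 2.93 higher in edgeR (SE 1.46), and limma voom called 0 of the 9. ILK and VCL were higher in all 10 microbrush libraries than in both blood libraries, 2 of the 10 genes and none below; over all genes 0.723% lay above and 8.75% below.

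Aorta and blood differed most. PARVA rose in aorta over blood by 4.55 (SE 0.65, adjusted p = 7.78e-11), LIMS2 by 3.79 (SE 0.60, adjusted p = 7.94e-09), FERMT2 by 3.78 (SE 0.56, adjusted p = 5.82e-10) and VCL by 2.09 (SE 0.68, adjusted p = 0.00969). FERMT3 fell by 2.78 (SE 0.44, adjusted p = 7.10e-09) and PARVG by 1.96 (SE 0.42, adjusted p = 3.03e-05). These 4 higher and 2 lower of 9 compare with 9.82% and 18.7% of 17082 genes called. ILK (0.41, SE 0.53), LIMS1 (-0.26, SE 0.43) and TLN1 (-0.25, SE 0.62) did not pass, and PARVB, without a test, had a fitted difference of -5.24. That value was -3.77 without blood 1, -5.98 without blood 3, -6.06 without aorta 1 and -4.74 on total counts. With blood 2 put back none of the 9 was called (adjusted p from 0.176 to 0.9495), while fitted values of the 6 kept their sign. The VCL call was lost without blood 3 (1.56, adjusted p = 0.0852, range 0.000180 to 0.715). Of the same 9 genes, PARVA, LIMS2, FERMT2, VCL and ILK lay above blood without overlap and PARVG and FERMT3 below; over all genes 16.9% lay above and 23.1% below.

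**Figure D4:**
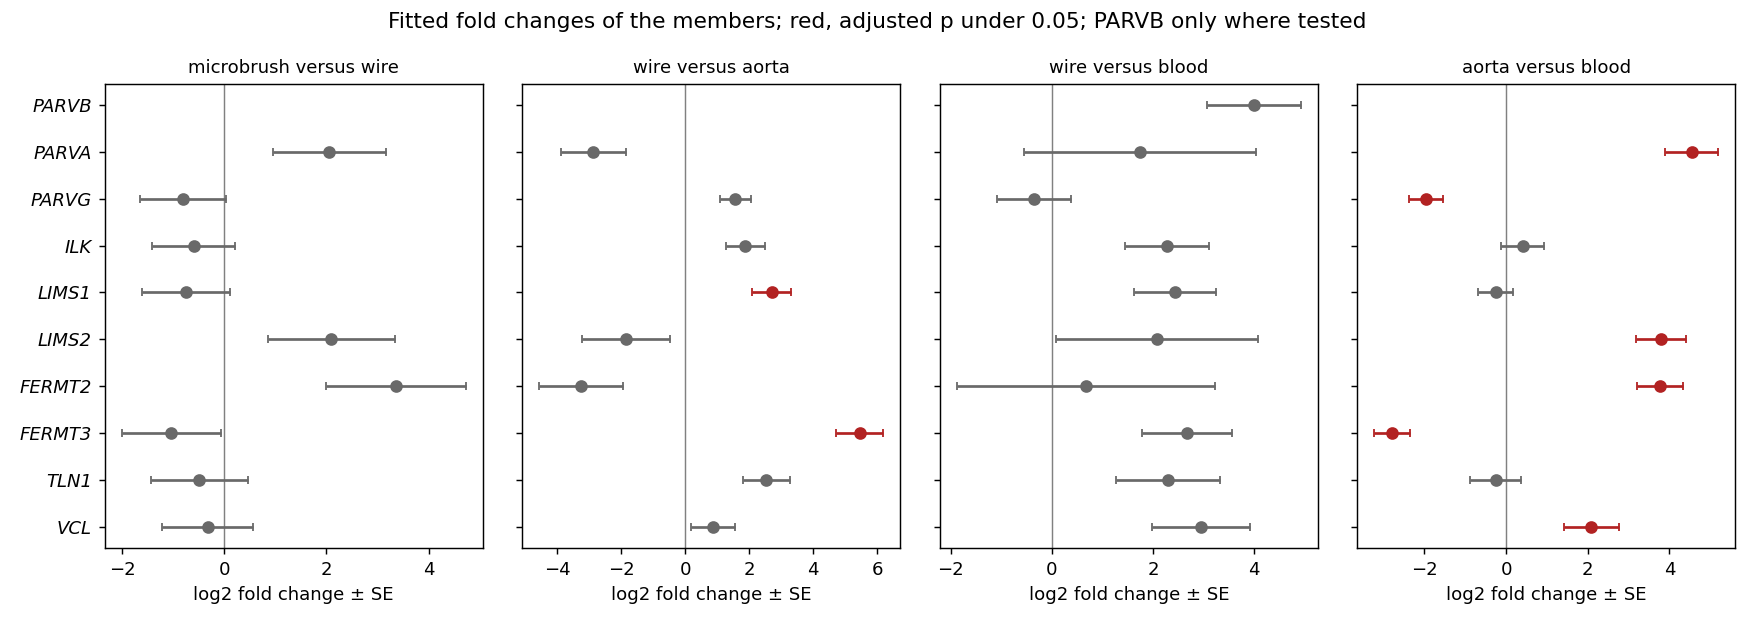
Fitted log2 fold changes (points) with SE (bars) of the genes in 4 comparisons (microbrush against wire, wire against aorta, wire against blood and aorta against blood), with red for an adjusted p under 0.05 and PARVB only where tested. Red points are FERMT3 and LIMS1 in wire against aorta, and PARVA, LIMS2, FERMT2, VCL, FERMT3 and PARVG in aorta against blood.

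Among the microbrush libraries, none of the 10 genes differed between kidney and liver arteries, where 0% of 15013 genes were called by edgeR. LIMS1 was 2.59 lower in kidney (SE 0.98) and PARVB 2.23 lower (SE 1.04), the 2 of 10 with an unadjusted p under 0.05, as had 238 of all genes. DESeq2 called 66 of all genes and none of the 10, but it gave PARVA, PARVG and FERMT2 no adjusted p. PARVB was 42.5 ± 23.01 CPM in kidney and 143 ± 121.4 CPM in liver, and LIMS1 53.1 ± 22.7 and 127 ± 133 CPM (SD, n = 5 each). FERMT3 was 141 ± 121.5 CPM in kidney and 455 ± 446 CPM in liver. PARVG was 68.2 ± 21.9 CPM in kidney and 22.7 ± 20.3 CPM in liver, with a fitted difference of 1.04 (SE 1.06). The liver libraries held both extremes of PARVB, with most in microbrush 4, 6 and 8 and least in microbrush 9.

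Other integrin adhesion genes, 62 of a list of 64 found in the table, were counted beside the members. On the wire 10 of 60 rose and 5 fell against aorta by edgeR, where 2.80% of all genes rose and 0.764% fell. These counts were 2 and 1 without aorta 1, 1 and 1 without aorta 2, 4 and 2 without aorta 3, 5 and 1 without aorta 4, 8 and 8 without wire 3, and 14 and 15 without wires 2 and 3. DESeq2 called 10 higher and 14 lower, limma voom 7 and 10, and the fit on total counts 7 and 7. In the fit on all 8 libraries RAP1B, a small GTPase that recruits talin, rose by 5.18 (SE 0.61, adjusted p = 0.0052), the leukocyte integrin chain ITGA4 by 4.17 (SE 0.62, adjusted p = 0.0068) and the actin regulator EVL by 4.55 (SE 0.70, adjusted p = 0.0073). The laminin receptor chain ITGA7 fell by 6.61 (SE 0.98, adjusted p = 0.0068), the LIM protein CSRP1 by 3.11 (SE 0.59, adjusted p = 0.0170) and the integrin chain ITGA8 by 5.45 (SE 1.14, adjusted p = 0.0249). In aorta against blood 31 of 62 rose, led by ITGA7 (7.10), ITGA8 (7.40) and the tensin TNS2 (4.99), and 17 fell, led by APBB1IP (-5.10), the adaptor between RAP1 and talin, ITGA4 (-5.58) and RAP1B (-4.06). Over all genes 9.82% rose and 18.7% fell, and the list had 29 calls higher and 10 lower without blood 1, and 1 higher and 0 lower with blood 2 put back. The list had 0 calls by edgeR in microbrush against wire (of 61), microbrush against blood (of 62), wire against blood (of 61) and kidney against liver (of 61). In these 4 comparisons edgeR found 13 higher, 22 higher and 2 lower, 13 higher, and 4 lower at an unadjusted p under 0.05, and DESeq2 called 3, 23, 11 and 3.

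Over the 20 libraries without blood 2, the profiles of the 10 genes were set beside those of 15009 genes by the root mean square (RMS) difference of centred log2(CPM + 1) values, a description that shares depth and cell content. Within the 10, ILK and TLN1 (0.60), ILK and VCL (0.64) and LIMS2 and FERMT2 (0.85) were closest, and PARVB and FERMT2 (4.69) farthest apart. PARVB was nearer to FERMT3 (1.27) than to its neighbour PARVG (3.10) or to PARVA (4.53). The nearest genes with a symbol were AVIL (0.61), DRC1 (0.84) and NHERF1 (0.87) for PARVB, where the median over all genes was 3.58. They were AKAP1 (0.47), ITGA9 and ARHGEF40 for PARVA and ADCY7 (0.38), ACAP1 and ADGRG5 for PARVG. For FERMT3 they were TREML1 (0.55), PLEK and PIP4K2A, and for FERMT2 TTLL7 (0.50), KCNMB1 and CCDC3. LIMS1 was nearest RAB11A (0.47), CREBL2 and TTC7B, and LIMS2 nearest LRP5 (0.48), DPYSL3 and MMP14. ILK was nearest PDE3A (0.46), ARHGEF12 and PSAP, TLN1 nearest ZYX (0.32), ANXA11 and ACTG1, and VCL nearest LPP (0.33), ACTN1 and PDLIM7. Without microbrush 4 the nearest gene became TMC8 for PARVG, PDXDC1 for ILK and RAB27B for LIMS1, and stayed the same for the other 7.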

How the data were processed

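Libraries were SMARTer Pico preparations of total RNA from a volume-reduced RNAdvance Tissue protocol, per the labels. The authors deposited estimated counts per Ensembl gene for 21 libraries; Salmon, DESeq2 and Sscrofa11.1 are named per the submitters' processing notes, and versions are not given in the sources used here. Fractional values made up 11.9%, so tests used rounded counts. Symbols were assigned by Ensembl gene ID, and 14692 of 24358 genes had a symbol. Spans and the protein coding annotation came from RefSeq tables (Sscrofa11.1).

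The 10 genes, the adhesion list and the marker lists were chosen with earlier results of these data known. For each comparison only the libraries of its 2 groups entered edgeR 4.0.16 (R 4.3.3): filterByExpr at a minimum count of 10, TMM scaling, robust quasi-likelihood test, Benjamini-Hochberg adjusted p under 0.05. The fit was tested on simulated data with 200 changed genes. Alternatives were RLE scaling, total counts, no filter, a minimum count of 50, DESeq2 1.42.0, limma 3.58.1 voom, libraries left out, each pig alone and the pig as a block. Ratios used a pseudocount of 0.5 counts. Limits for a count of 0 (3 counts) and intervals cover counting error only. Named genes were the 10, up to 3 adhesion genes per direction with the smallest p among those called, and the 3 nearest profiles among genes with a mean of at least 5 CPM.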

Additional observations from a re-analysis of the deposited data

Results flagged for a closer look

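In groups of 4 to 10 libraries, the highest or lowest value was held against the others by Dixon's test, of which chance flags about 1 in 20 groups; here 5 of 45 groups stood out. PARVA and LIMS2 were at 0 CPM in microbrush 4, far below the other 9 microbrush libraries, in a library with 3831 detected genes. LIMS2 was at 229 CPM in aorta 4, above 116.2 to 123 CPM in the other 3 aorta libraries. In wire 3, where PARVA was at 0, the log2 ratio of PARVA to PARVG was -9.34 and that of PARVB to PARVA 12.35, both far from the other 3 wires.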

How the results depend on the processing

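Of 880 alternative values of single genes, 794 were counted as unchanged. For tested values this meant the same direction and side of the threshold, and 38 tested values changed sign, none of them a called value. Values without a test were counted as unchanged, whatever their sign, if they moved by less than 1 SD. That SD was taken over log2(CPM + 1) in the first group, and 11 values moved by more. PARVB in microbrush against wire, without a test, counted as unchanged although it was 0.24 in pig 243K alone. For microbrush against wire, DESeq2 called 1.0e+02 genes (96 higher and 5 lower) and pig 248K alone 46, and VCL turned to 0.28 on total counts. In pig 243K alone ILK (0.99), LIMS1 (0.84), FERMT3 (0.51), TLN1 (1.07) and VCL (1.40) turned higher on the microbrush. Without wires 2 and 3 and microbrush 4, a set chosen after seeing the data, ILK (0.42), LIMS1 (0.13), TLN1 (0.49) and VCL (0.84) did so, and leaving out 1 library gave -0.90 to 0.086 for ILK, -0.78 to 0.30 for TLN1 and -0.70 to 0.70 for VCL.

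For wire against aorta the 546 calls became 339 on total counts, 1116 in DESeq2, 1411 without wires 2 and 3, and 62 to 1515 without 1 library, so 1 library decides this count (62 without aorta 2, 1515 without wire 4). VCL turned to -0.25 on total counts, -0.35 without wires 2 and 3, and ranged from -0.20 to 1.14 without 1 library. For microbrush against blood the 3 calls became 0 under RLE, 12 on total counts, 14 with no filter, 303 in DESeq2, 11 in limma voom and 0 to 5 without 1 library.

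For wire against blood the 8 calls became 3 under RLE, 310 on total counts, 5 with no filter, 0 at a minimum count of 50, 246 in DESeq2, 45 in limma voom, 0 with blood 2, 17 with the pig as a replicate block, 818 without wires 2 and 3, and 0 to 24 without 1 library. PARVG turned to 0.14 under RLE and in DESeq2 and to 0.33 with blood 2. In limma voom PARVA (-0.30), LIMS2 (-1.32) and FERMT2 (-1.65) turned, as did LIMS2 (-3.96) and FERMT2 (-3.52) under the block, and FERMT2 ranged from -0.75 to 1.19 without 1 library. In aorta against blood the 4875 calls became 239 with blood 2 and 2488 to 6990 without 1 library. LIMS1 and TLN1 turned to 0.051 and 0.073 on total counts and to 0.19 and 0.32 with blood 2. Without 1 library ILK ranged from -0.024 to 0.93, LIMS1 from -0.63 to 0.18 and TLN1 from -0.78 to 0.52.

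For kidney against liver, no filter gave 1 call and DESeq2 66, and leaving out 1 library 0. FERMT2 turned to 1.17 in limma voom, and without 1 library PARVA ranged from -0.25 to 1.29, LIMS2 from -0.40 to 0.93 and FERMT2 from -0.90 to 1.47. The PARVA to PARVG difference between microbrush and wire was 3.09 at a pseudocount of 5, 1.86 without wires 2 and 3 and microbrush 4, and 1.96 to 4.68 without 1 library, in each case without a call. Between organs it ranged from -1.11 to 0.48. Without 1 library FERMT2 to FERMT3 ranged from 4.61 to 7.94, with a call at 7.50 without microbrush 4, and it was 3.37 without wires 2 and 3 and microbrush 4. The cause of these changes was not tested.

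The median fold over all genes moved with scaling, from 0.17 with TMM to 0.79 on total counts for microbrush against wire, from -0.29 to -0.94 for wire against aorta, from -0.34 to -0.82 for wire against blood and from 0.50 to 1.13 for kidney against liver. Where the aorta comparisons are concerned, no paired analysis was possible because the aorta pig gave no other library. PARVB in aorta rests on 5 counts, and 2 blood libraries carry each blood comparison.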
